A study of Oryza sativa with 6 samples.

Results

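Aquaporin transcripts were followed in rice leaves in which the microRNA gene MIR171f was overexpressed or mutated. The table of listed transcripts held 7 of them, from 6 genes, among 7194 transcripts of 6535 genes. They were chosen by description alone, as every transcript described as an aquaporin, a major intrinsic protein, or a tonoplast or plasma membrane intrinsic protein. All 7 passed the filter on low counts. By its title the study asks how miR171f and its Scarecrow-like targets bear on drought tolerance, and aquaporins are the channels through which much of a leaf's water moves between cells.

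Poly(A) RNA came from leaves of 4-week-old plants of Oryza sativa in 3 groups of 2 libraries. The OX libraries came from transgenic lines Ox_3 (replicate 1) and Ox_5 (replicate 2), which overexpress Osa-MIR171f in the whole body. The KO libraries came from CRISPR-Cas9 knockout mutants of the same gene labelled K/O_2 and K/O_2_1, so both carry line number 2. The WT libraries came from nontransgenic plants. The sources used here give neither the promoter of the transgene nor the mutated sequence, and the level of MIR171f itself is not analysed here. The labels do not say whether the libraries of KO, or of WT, came from separate plants, so p-values measure the spread between these samples, which may be technical.

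Plant aquaporins are small membrane channels that let water, and in some subfamilies other small neutral molecules, cross a membrane along its gradient. Plasma membrane intrinsic proteins carry water into and out of cells. Tonoplast intrinsic proteins do so across the membrane of the vacuole, the compartment that holds most of the water of a grown leaf cell. NOD26-like intrinsic proteins, a related subfamily, are known for small solutes such as glycerol, boric acid and silicic acid.

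The authors' table keeps transcripts that changed 2-fold or more at a raw p under 0.05 in 1 or more of their 3 comparisons, and an aquaporin that changed less is not analysed here. Of the 7 aquaporins, Os01t0232000-00 met that criterion in 3 comparisons, Os05t0231700-01 in 1 comparison (the one between KO and OX), and each of the other 5 in 2 comparisons, which always included the one between KO and OX. Listed counts per library were between 7376228 and 9739821, against effective library totals, the denominators behind the authors' normalised values, of 23869522 to 34214364. Levels within a transcript are in CPM, its counts scaled to the effective total. Means stand with their SD over the 2 libraries of a group, and fold changes are log2 values with a standard error (SE). Tests are edgeR quasi-likelihood tests, Benjamini-Hochberg adjusted, and "called" means an adjusted p under 0.05.

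The 42 listed transcripts of light harvesting, photosystems and Rubisco, used as leaf markers, summed to 64035 and 67560 CPM in OX, 97478 and 95494 CPM in KO, and 152846 and 161298 CPM in WT. Of 41 tested, 35 were lower in OX and 30 were lower in KO, each against WT (edgeR), beside 19.0% and 11.0% lower over all transcripts tested. Dividing-cell markers (32 transcripts) summed to 832 and 847 CPM in OX, 602 and 596 CPM in KO, and 1489 and 1597 CPM in WT. Their members went both ways, with 5 higher and 7 lower in OX (median log2 fold change 0.28) and 7 higher and 9 lower in KO (median -0.12), each against WT. The higher count in OX was 1 to 2 without OX replicate 1, OX replicate 2, WT replicate 1 or WT replicate 2, and that in KO was 2 to 4 without any 1 of the 6 libraries. Vascular markers (3 transcripts) summed to 14.1 and 16.7 CPM in OX, 73.9 and 69.3 CPM in KO, and 40.5 and 43.4 CPM in WT, and 5 transcripts with root in their description to 99.0 and 40.0 CPM in OX, 53.9 and 42.1 CPM in KO, and 16.6 and 33.0 CPM in WT. Both lists are narrow. The vascular list is the xylem proteinase Os05t0108600-01, not called in any comparison, and Os03t0170900-01 and Os03t0170900-02 of 1 sucrose transporter gene. Os03t0170900-01 was called lower in OX against WT (log2 fold change -1.45) and against KO (-2.23), and higher in KO against WT (0.78). Os03t0170900-02 was called only in OX against KO (-2.12). The root descriptions name root hair defective 3 or root hairless proteins. Of these 5, 2 were called higher in KO against WT, beside 25.0% over all transcripts tested, and the other comparisons gave no call. No listed description matched a guard cell marker. The part of these markers in the aquaporin results was not tested, and in leaf samples of mixed cells, fewer cells of a type and less RNA per cell cannot be told apart.

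Overexpression of MIR171f was set against WT to ask which aquaporins differ when the microRNA gene is raised. The listed plasma membrane aquaporins were higher in OX and the most abundant listed tonoplast aquaporin was lower. Of 7 tested, 3 were called higher, all of the plasma membrane class, and 2 lower, while 2 tonoplast members were not called. Of the higher ones, Os09t0541000-01 and Os09t0541000-02 are transcripts of the same gene. Every member called here had met the authors' criterion in this comparison, so the calls are in part set by that selection. Among all 7034 transcripts tested, 25.0% were called higher and 19.0% lower in OX against WT, 44.1% in all, so changed members are common in this selected table, and counts of so few members are given as a description. The median log2 fold change was 0.72 over the 7 aquaporins and 0.28 over all transcripts tested. Higher calls were 56.9% of all calls, 49.6% with DESeq2 size factors, 55.9% with TMM and 70.8% with plain totals.

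**Figure D1:**
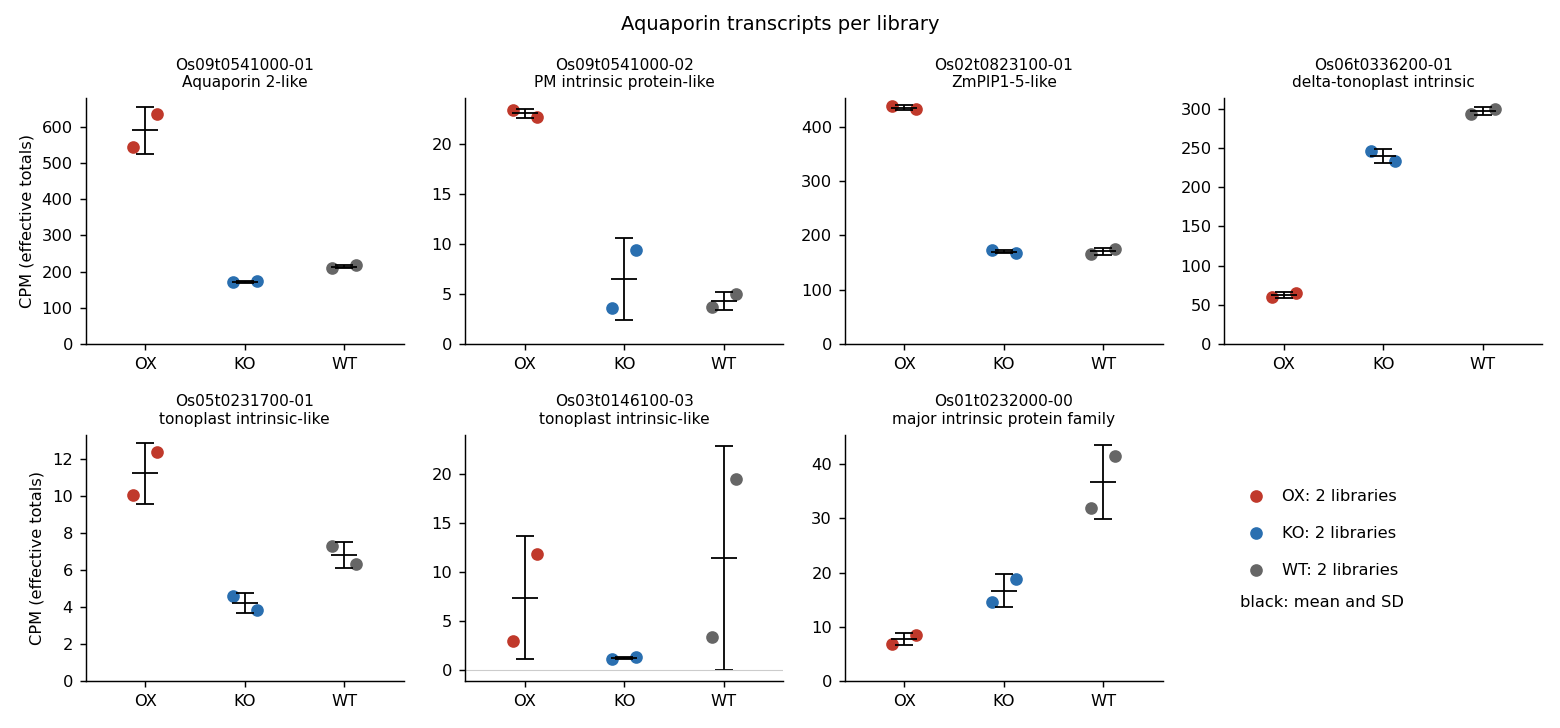
CPM of each of the 7 aquaporin transcripts (vertical axis, each panel with its own scale that shows 0) in the OX, KO and WT libraries. Points are libraries, black bars the mean and SD. OX stands above KO and WT for the 3 plasma membrane transcripts and the tonoplast transcript Os05t0231700-01. It stands below both for Os06t0336200-01 and Os01t0232000-00.

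The most abundant of the listed plasma membrane aquaporins was Os09t0541000-01, described as similar to Aquaporin 2 (chromosome 9, 21310132 to 21311479, build IRGSP-1.0). That description names no membrane. The transcript is counted in the plasma membrane class with Os09t0541000-02 of the same gene, whose description does name it. It had 544 and 636 CPM in the OX libraries, 170.2 and 174 CPM in KO, and 210.4 and 218 CPM in WT. Both OX libraries lay above every other library, and the KO libraries lay just below WT. Its mean was 590.0 ± 64.8 CPM in OX and 214 ± 5.45 CPM in WT (log2 fold change 1.46, SE 0.08, adjusted p = 3.51e-04, edgeR).

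Os02t0823100-01, similar to the maize plasma membrane protein ZmPIP1-5 (chromosome 2, 35349673 to 35351221), belongs by that description to the PIP1 type. Proteins of that type are known in maize to reach the plasma membrane together with PIP2 partners. It had 438 and 432 CPM in OX, 172 and 168 CPM in KO, and 166 and 176 CPM in WT. OX stood apart and the KO and WT libraries overlapped. The mean was 435 ± 4.11 CPM in OX and 171 ± 6.61 CPM in WT (log2 fold change 1.35, SE 0.05, adjusted p = 1.02e-04, edgeR).

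Os09t0541000-02 is a shorter transcript of the gene Os09g0541000 (chromosome 9, 21310135 to 21311400), described as similar to a plasma membrane intrinsic protein. It had 23.4 and 22.7 CPM in OX, 3.57 and 9.36 CPM in KO, and 3.72 and 4.99 CPM in WT. The OX libraries again stood above the others, and the KO libraries were spread around WT. It averaged 23.0 ± 0.470 CPM in OX and 4.35 ± 0.896 CPM in WT (log2 fold change 2.40, SE 0.48, adjusted p = 0.0418, edgeR). This call is the least secure of the 5, since its adjusted p was 0.164 without OX replicate 1, 0.152 without OX replicate 2, 0.246 without WT replicate 1, 0.176 without WT replicate 2 and 0.0532 with DESeq2 size factors, within a range of 2.40e-05 to 0.246 over all 13 settings.

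The delta-tonoplast intrinsic protein Os06t0336200-01 (chromosome 6, 13407319 to 13408715), from the TIP type that lines vacuole membranes, was the most abundant listed aquaporin per length in WT. It had 59.9 and 64.9 CPM in OX, 246 and 234 CPM in KO, and 294 and 300.3 CPM in WT. The OX libraries lay far below the other 4, and KO lay below WT without overlap. The mean was 62.4 ± 3.54 CPM in OX and 297 ± 4.54 CPM in WT (log2 fold change -2.25, SE 0.06, adjusted p = 6.06e-05, edgeR), which is 4.76-fold lower in OX.

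Os01t0232000-00, described as a protein of the major intrinsic protein family with no membrane named (chromosome 1, 7297781 to 7298619), was the other member called lower. It had 6.90 and 8.51 CPM in OX, 14.5 and 18.8 CPM in KO, and 31.9 and 41.6 CPM in WT. The 3 groups were separate, in the order OX, KO, WT. It averaged 7.70 ± 1.14 CPM in OX and 36.7 ± 6.88 CPM in WT (log2 fold change -2.25, SE 0.22, adjusted p = 0.00213, edgeR).

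The remaining tonoplast members were low and were not called in OX against WT. Os05t0231700-01, similar to a tonoplast intrinsic protein (chromosome 5, 8000718 to 8002989), had 10.1 and 12.4 CPM in OX, 4.60 and 3.84 CPM in KO, and 7.32 and 6.33 CPM in WT. Its libraries fell in the order KO, WT, OX without overlap, and the OX value against WT was 0.72 (SE 0.19, adjusted p = 0.0887, edgeR, between 0.0191 and 0.438 over all settings). It was called higher with plain library totals (adjusted p = 0.0191) and by the DESeq2 Wald test (adjusted p = 0.0422). Os03t0146100-03, also similar to a tonoplast intrinsic protein (chromosome 3, 2562858 to 2564643), had 2.96 and 11.8 CPM in OX, 1.19 and 1.35 CPM in KO, and 3.41 and 19.5 CPM in WT. Its libraries within OX differed 4.00-fold and those within WT 5.72-fold, wider than the difference between those groups (log2 fold change -0.63, SE 0.99, adjusted p = 1, edgeR), and the sign turned to 0.05 without OX replicate 1 and to 1.12 without WT replicate 2.

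**Figure D2:**
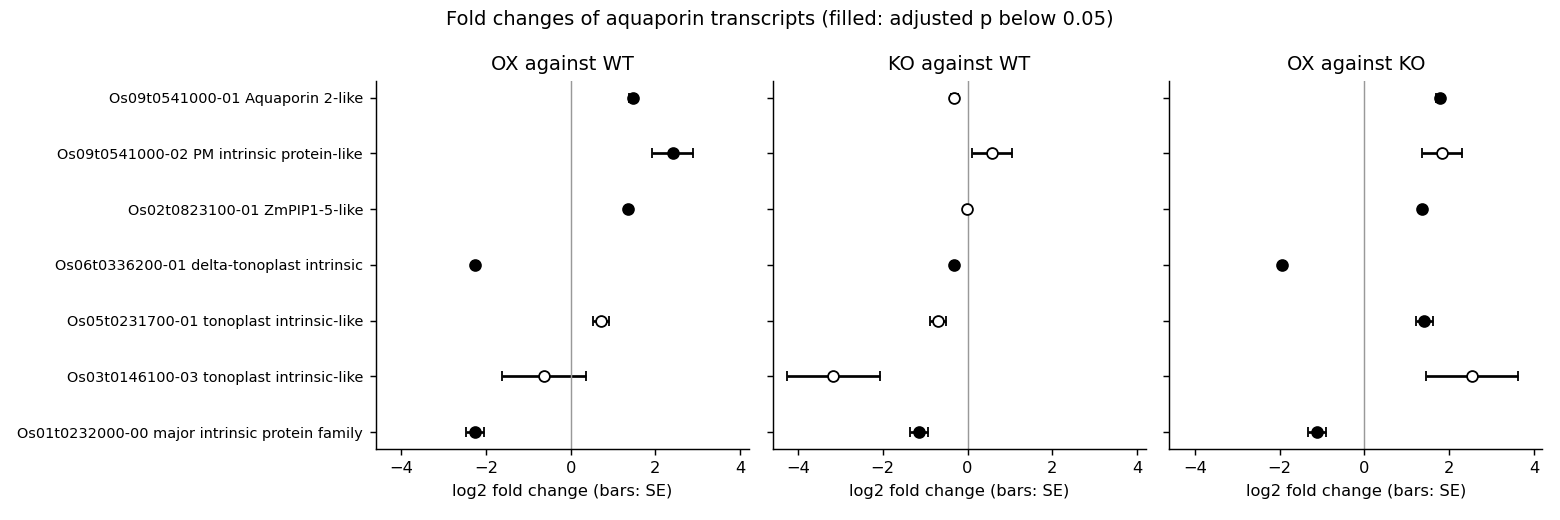
Log2 fold change of each aquaporin transcript (horizontal axis, bars are 1 SE) in the 3 comparisons. Filled points have an adjusted p below 0.05. In the OX and WT comparison the plasma membrane transcripts lie between 1.35 and 2.40, and the delta-tonoplast and major intrinsic protein transcripts at -2.25.

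Under all 13 settings, which include leaving out any 1 library, other scalings and the DESeq2 Wald test, Os09t0541000-01, Os02t0823100-01, Os06t0336200-01 and Os01t0232000-00 were called in OX against WT in the same direction (highest adjusted p 0.00483, 0.00182, 0.00118 and 0.0199).

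Because levels between transcripts can be compared only per length, the membrane classes were summed as FPKM, the authors' reads scaled to transcript length and library depth. The 3 plasma membrane transcripts summed to 828 and 880.3 FPKM in OX, 249 and 253 FPKM in KO, and 241 and 249 FPKM in WT. The 3 tonoplast transcripts summed to 63.6 and 78.8 FPKM in OX, 191 and 181 FPKM in KO, and 203 and 219 FPKM in WT. The plasma membrane sum was 3.48 times as high in OX as in WT, and the tonoplast sum 0.337 times. Summed in CPM on the effective totals, the values were 2.69 and 0.257 times. The tonoplast sum rests mostly on the delta-tonoplast transcript, at a mean of 196 of 211 FPKM in WT and 53.2 of 71.2 FPKM in OX. Os05t0231700-01 went the other way without a call, at 9.28 ± 1.21 FPKM in OX and 4.36 ± 0.506 FPKM in WT. The libraries of Os03t0146100-03 overlapped between OX and WT. In KO the tonoplast sum was 0.880 times that of WT, while the plasma membrane sums averaged 251 ± 2.70 FPKM in KO and 245 ± 5.55 FPKM in WT. Scaled to the effective totals, the direction turned, with 349 ± 3.46 CPM in KO and 390 ± 13.0 CPM in WT and no overlap between libraries.

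**Figure D3:**
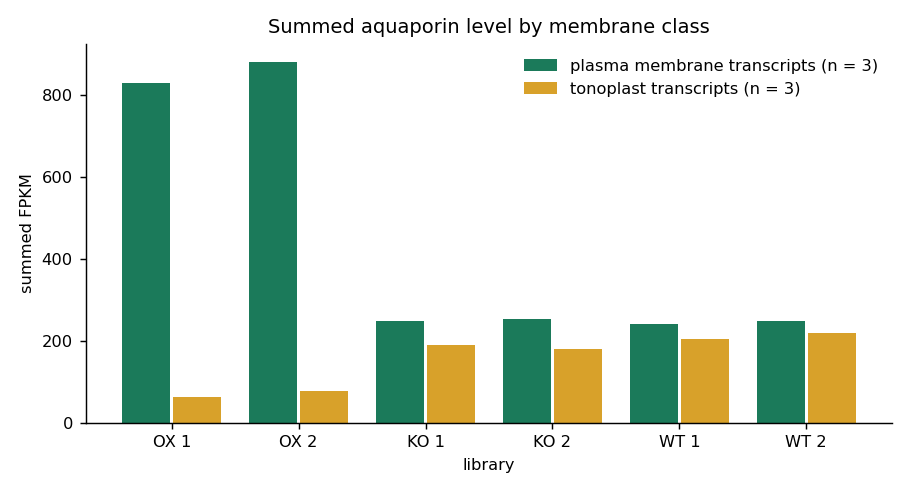
Summed FPKM (vertical axis) of the 3 plasma membrane and the 3 tonoplast aquaporin transcripts in each of the 6 libraries. In the OX libraries the plasma membrane sums are 828 and 880.3 FPKM and the tonoplast sums 63.6 and 78.8 FPKM, while in KO and WT both sums lie between 181 and 253 FPKM.

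Within a library the ratio of these sums does not depend on how libraries are scaled. Plasma membrane FPKM was 13.0 and 11.2 times tonoplast FPKM in OX, 1.31 and 1.40 times in KO, and 1.19 and 1.14 times in WT. The OX libraries stood apart by a wide margin, and the KO libraries were just above WT. The 3 plasma membrane transcripts and the delta-tonoplast transcript were listed through the comparisons that include OX. None of them met the authors' criterion in KO against WT. A ratio with OX apart and KO near WT is thus in part set by that selection, and is given as a description. The ratio covers listed transcripts alone, and other aquaporins of rice may alter it.

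Ordered by mean FPKM, the delta-tonoplast transcript led in WT (196 ± 0.872 FPKM), followed by Os09t0541000-01 (138 ± 2.02 FPKM) and Os02t0823100-01 (104 ± 2.89 FPKM), with no overlap between these neighbours. Next stood Os01t0232000-00 (38.9 ± 6.87 FPKM). Os03t0146100-03 (10.5 ± 10.4 FPKM), Os05t0231700-01 (4.36 ± 0.506 FPKM) and Os09t0541000-02 (3.26 ± 0.643 FPKM) followed, and the libraries of Os03t0146100-03, at 3.13 and 17.8 FPKM, overlapped those of the other two. In KO the same 3 transcripts led, at 181 ± 6.75 FPKM for the delta-tonoplast transcript, 127 ± 1.66 FPKM for Os09t0541000-01 and 119 ± 2.48 FPKM for Os02t0823100-01. In OX the order began with Os09t0541000-01 (490 ± 46.2 FPKM) and Os02t0823100-01 (342 ± 8.57 FPKM), with the delta-tonoplast transcript at 53.2 ± 2.18 FPKM. Among all 7194 listed transcripts ordered by mean FPKM, Os09t0541000-01 ranked 51 in OX, 222 in KO and 175 in WT, and the delta-tonoplast transcript ranked 411 in OX, 146 in KO and 122 in WT.

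The knockout was set against WT to ask whether loss of the microRNA gene moves the same channels. In KO, Os01t0232000-00 and the delta-tonoplast transcript were called lower. Of 7 aquaporins 0 were called higher and 2 lower by edgeR, against 25.0% higher and 11.0% lower (36.0% in all) among all 7034 transcripts tested. At an unadjusted p under 0.05 the edgeR test gave 0 higher and 5 lower, and the DESeq2 Wald test gave 0 higher and 4 lower calls. The median log2 fold change was -0.32 over the 7 aquaporins and 0.43 over all transcripts tested. Higher calls were 69.4% of all calls, but 45.0% with DESeq2 size factors and 49.8% with TMM on the listed transcripts.

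Os01t0232000-00 was lower in KO, at 16.6 ± 3.04 CPM against 36.7 ± 6.88 CPM in WT (log2 fold change -1.14, SE 0.21, adjusted p = 0.0272, edgeR). The call was lost without KO replicate 1 (adjusted p = 0.144), without KO replicate 2 (0.0654) and without WT replicate 2 (0.114), within a range of 1.14e-04 to 0.144 over all settings. The delta-tonoplast transcript was lower by a small amount, at 240 ± 8.46 CPM in KO and 297 ± 4.54 CPM in WT (log2 fold change -0.31, SE 0.06, adjusted p = 0.0309, edgeR). That call was lost with plain library totals (adjusted p = 0.457) and on leaving out either KO library (0.118 and 0.209) or either WT library (0.101 and 0.134), with 2.78e-04 as the lowest over all settings.

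The plasma membrane transcripts were not called in KO against WT. Os02t0823100-01 averaged 170.0 ± 3.21 CPM in KO and 171 ± 6.61 CPM in WT, a log2 fold change of -0.01 (SE 0.05, adjusted p = 1, edgeR). Os09t0541000-01 averaged 172 ± 2.57 CPM in KO and 214 ± 5.45 CPM in WT (-0.32, SE 0.08, adjusted p = 0.0855, between 0.00210 and 0.740 over all settings). It was called lower without OX replicate 1 (adjusted p = 0.0227) or OX replicate 2 (0.0238) and by the DESeq2 Wald test (0.0189). Os09t0541000-02 averaged 6.46 ± 4.10 CPM in KO and 4.35 ± 0.896 CPM in WT (0.57, SE 0.47, adjusted p = 1), and its sign turned to -0.29 without KO replicate 2.

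The low tonoplast members had negative values in KO without a call. Os05t0231700-01 averaged 4.22 ± 0.539 CPM in KO and 6.82 ± 0.702 CPM in WT (-0.69, SE 0.20, adjusted p = 0.122, edgeR). Os03t0146100-03 averaged 1.27 ± 0.116 CPM in KO and 11.4 ± 11.4 CPM in WT (-3.16, SE 1.10, adjusted p = 0.252, between 0.0114 and 1 over all settings). In the authors' deposited table this transcript has a signed fold change of -8.97 in KO against WT with an adjusted p of 2.93e-05, so its call depends on the test used.

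The scaling of libraries changed calls in this comparison. DESeq2 size factors shifted the median log2 fold change of all transcripts in KO against WT by -0.49 and TMM on the listed transcripts by -0.40, while plain library totals shifted it by 0.19. The same 3 scalings shifted the median by -0.17, -0.02 and 0.37 in OX against WT and by 0.32, 0.38 and 0.17 in OX against KO. With DESeq2 size factors or TMM, Os02t0823100-01 (-0.50 and -0.41), Os09t0541000-01 (-0.81 and -0.72) and Os05t0231700-01 (-1.19 and -1.09) were called lower in KO as well, which gave 5 lower calls. Plain totals turned Os02t0823100-01 to 0.19 without a call and left Os01t0232000-00 as the 1 lower call.

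**Figure D4:**
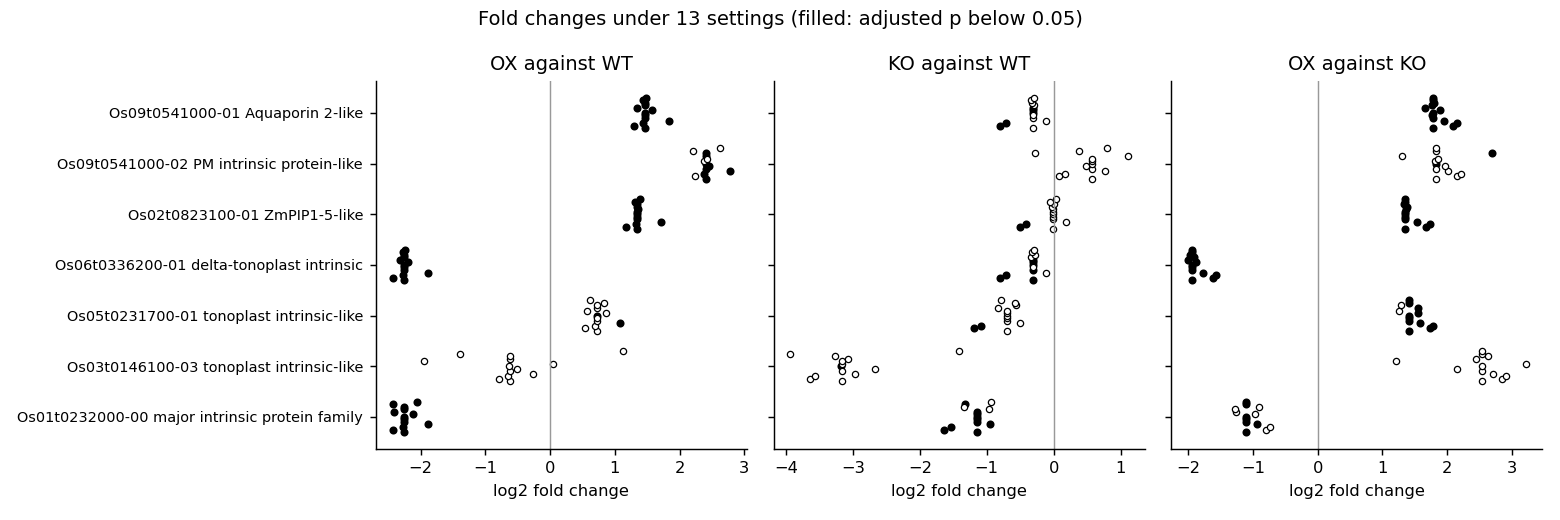
Log2 fold change of each aquaporin transcript (horizontal axis) under 13 settings, which are the reported fit and 12 alternatives. Points are settings, filled where the adjusted p is below 0.05. In OX against WT 4 transcripts are filled throughout, whereas in KO against WT the filled points are scattered and Os02t0823100-01 lies on both sides of 0.

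OX was also set directly against KO, the genotypes altered in opposite directions. These values use the same OX and KO libraries as the comparisons above and are not independent of them. Os09t0541000-01 and Os02t0823100-01 of the plasma membrane class and the tonoplast member Os05t0231700-01 were higher in OX, and the delta-tonoplast transcript and Os01t0232000-00 were lower. Of 7 tested, 3 were called higher and 2 lower, against 13.3% higher and 25.0% lower (38.3% in all) among all 7034 transcripts. Every one of the 7 had met the authors' criterion in this comparison, so these calls too are in part set by that selection. The median log2 fold change was 1.41 over the 7 aquaporins and -0.41 over all transcripts tested. Higher calls were 34.7% of all calls, but 50.0% with DESeq2 size factors and 53.0% with TMM.

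Os09t0541000-01 was higher in OX than in KO, at 590.0 ± 64.8 CPM in OX and 172 ± 2.57 CPM in KO (log2 fold change 1.78, SE 0.08, adjusted p = 2.45e-04, edgeR), as was Os02t0823100-01 (1.36, SE 0.05, adjusted p = 1.13e-04). The tonoplast member Os05t0231700-01 was also higher in OX, at 11.2 ± 1.63 CPM in OX and 4.22 ± 0.539 CPM in KO (1.41, SE 0.20, adjusted p = 0.00994). That call was lost without OX replicate 2 (adjusted p = 0.0675) or KO replicate 2 (0.0737), within a range of 1.49e-06 to 0.0737 over all settings. The delta-tonoplast transcript went the other way and was 3.84-fold lower in OX than in KO (-1.94, SE 0.06, adjusted p = 8.71e-05).

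Os01t0232000-00 was lower in OX than in KO (-1.11, SE 0.21, adjusted p = 0.0298, edgeR), a call lost with DESeq2 size factors (0.0870), with TMM on the listed transcripts (0.110) and without OX replicate 1 (0.163), OX replicate 2 (0.0866), KO replicate 1 (0.0554) or KO replicate 2 (0.140). The range over all settings was 2.77e-04 to 0.163. Os09t0541000-02 (1.83, SE 0.47, adjusted p = 0.101) and Os03t0146100-03 (2.54, SE 1.08, adjusted p = 0.396) were not called. The first of these was called higher without KO replicate 2 (adjusted p = 0.0125) and by the DESeq2 Wald test (0.00277), the lowest over all settings.

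The gene Os09g0541000 was represented by both listed transcripts, whose spans lie on top of each other. Transcript 02 took 4.12% (exact binomial 95% interval 3.83% to 4.42%) and 3.45% (3.21% to 3.69%) of the gene's listed counts in OX. Its share was 2.05% (1.66% to 2.51%) and 5.11% (4.52% to 5.76%) in KO, and 1.74% (1.41% to 2.12%) and 2.23% (1.85% to 2.67%) in WT. The KO libraries enclosed the OX values and lay on both sides of 1 WT value, so the share did not separate KO from either group. The intervals cover counting error only, and transcripts of 1 gene may share reads in the authors' counting. Summed over both transcripts the gene stood at 613 ± 64.4 CPM in OX, 179 ± 6.67 CPM in KO and 219 ± 6.35 CPM in WT.

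Other listed transcripts of these genes carry clone descriptions and so fall outside the choice by description. For the delta-tonoplast gene, Os06t0336200-02 had 4.88 and 3.71 CPM in OX, 11.5 and 13.0 CPM in KO, and 22.2 and 22.0 CPM in WT. It was lower in OX against WT like the described transcript (log2 fold change -2.36, SE 0.17, adjusted p = 8.37e-04, edgeR) and in OX against KO (-1.51, SE 0.17, adjusted p = 0.00467). It was lower in KO than in WT too (-0.85, SE 0.17, adjusted p = 0.0342), but this did not hold with plain library totals (0.0949) or without KO replicate 1 (0.207), KO replicate 2 (0.127), WT replicate 1 (0.138) or WT replicate 2 (0.131), with 5.84e-04 as the lowest over all settings. For the gene Os03g0146100, Os03t0146100-05 had 8.06 and 27.7 CPM in OX, 9.47 and 0.146 CPM in KO, and 14.1 and 25.8 CPM in WT. Its OX libraries overlapped those of KO and of WT, its KO libraries lay below WT, and it was not called in any comparison (adjusted p = 1 in each). A hypothetical gene, Os09t0541050-00 (chromosome 9, 21310165 to 21310918), lies inside the span of Os09g0541000, with counts of 4 to 20 per library, and the sources used here do not say whether reads were counted by strand.

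The related NOD26-like subfamily had 2 listed transcripts, neither a member by the rule. Os06t0228200-03 (chromosome 6, 6648430 to 6652996) had 61.1 and 57.8 CPM in OX, 20.8 and 21.4 CPM in KO, and 29.6 and 30.7 CPM in WT. In OX it was higher than in WT (log2 fold change 0.98, SE 0.07, adjusted p = 8.53e-04, edgeR) and than in KO (1.50, SE 0.07, adjusted p = 2.96e-04). In KO against WT it was lower (-0.52, SE 0.07, adjusted p = 0.0106), which did not hold with plain totals (0.0617) or without KO replicate 1 (0.0863), KO replicate 2 (0.0713) or WT replicate 2 (0.0521), with 2.05e-05 as the lowest over all settings. Os02t0232900-01, similar to the maize protein ZmNIP1-1 (chromosome 2, 7516238 to 7519231), had 2.74 and 3.89 CPM in OX, 0.920 and 1.17 CPM in KO, and 0.465 and 0.251 CPM in WT, and was higher in OX than in WT (3.19, SE 0.42, adjusted p = 0.00688). Its OX value against KO was 1.66 (SE 0.37, adjusted p = 0.0557, edgeR), which became a call with DESeq2 size factors (0.0330), TMM (0.0287), plain totals (0.0399) and the DESeq2 Wald test (0.0220), and had an adjusted p of up to 0.278 over all settings.

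Water follows solutes, so transcripts of proton pumps and of potassium and anion transport were counted beside the aquaporins. Of 8 proton pump transcripts tested (9 matched), 1 was higher and 2 were lower in OX against WT, beside 25.0% higher and 19.0% lower over all transcripts. The vacuolar H+-pyrophosphatase Os06t0178900-01, a pump of the vacuole membrane, had 13.1 ± 0.681 CPM in OX and 4.99 ± 0.662 CPM in WT (log2 fold change 1.39, SE 0.18, adjusted p = 0.00607, edgeR, but 0.0504 without OX replicate 2). The vacuolar ATPase subunit Os01t0834200-04 stood low, at 0.197 ± 0.0110 CPM in OX and 2.61 ± 0.908 CPM in WT. Another listed transcript of its gene, Os01t0834200-02, had a positive value without a call (2.57, SE 2.47, and -2.53 without OX replicate 1). The plasma membrane H+-ATPase Os08t0241800-01 (-1.62, SE 0.29, adjusted p = 0.0222) and Os01t0834200-04 (-3.70, SE 0.73, adjusted p = 0.0309) were the lower pair. Leaving out OX replicate 1, OX replicate 2, WT replicate 1 or WT replicate 2 ended both calls, with adjusted p-values of 0.0736 to 0.145 for the first and 0.0691 to 0.194 for the second. Between KO and WT edgeR called 0 proton pumps (1 higher by the DESeq2 Wald test, and 1 without KO replicate 1 or KO replicate 2), and at an unadjusted p under 0.05 gave 1 higher and 0 lower.

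Of 27 potassium and anion transport transcripts, 9 were higher and 3 lower in OX against WT, and 7 were higher and 0 lower in KO against WT (edgeR). Over all transcripts 25.0% were higher and 19.0% lower in OX, and 25.0% higher and 11.0% lower in KO. At an unadjusted p under 0.05 the KO counts were 11 higher and 3 lower, the DESeq2 Wald test gave 8 higher and 2 lower, and 1 was lower without OX replicate 1, OX replicate 2 or KO replicate 1. The list is broad and also matched a voltage-dependent anion channel of mitochondrial type and a plastid malate transporter. The KUP-related potassium transporter Os08t0466200-01 had 13.9 ± 0.789 CPM in OX and 1.20 ± 0.323 CPM in WT (3.53, SE 0.27, adjusted p = 9.22e-04, edgeR). The malate transporter Os01t0221600-00, whose family moves organic anions across membranes, had 4.64 ± 0.0545 CPM in OX and 74.9 ± 3.66 CPM in WT (-4.01, SE 0.08, adjusted p = 3.83e-05). Among KO calls against WT, the potassium channel similar to AtKCO1, Os07t0108800-01, had the largest fold change of those called (2.89, SE 0.29, adjusted p = 0.00295). Its level was low, at 2.72 ± 0.277 CPM in KO and 0.363 ± 0.0202 CPM in WT. It was higher in OX against WT too (1.75, SE 0.29, adjusted p = 0.0167, edgeR), a call that did not hold in every setting. In OX against KO the list gave 3 higher (1 without OX replicate 1) and 4 lower (2 without OX replicate 1, KO replicate 1, WT replicate 1 or WT replicate 2). The H+-pyrophosphatase was the 1 proton pump called higher there (1.33, SE 0.17, adjusted p = 0.00815), lost without OX replicate 1 (0.0510), OX replicate 2 (0.0653) or KO replicate 2 (0.0652). No pump was called lower by edgeR, with 2 at an unadjusted p under 0.05, 1 by the DESeq2 Wald test and 2 without KO replicate 1.

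**Figure D5:**
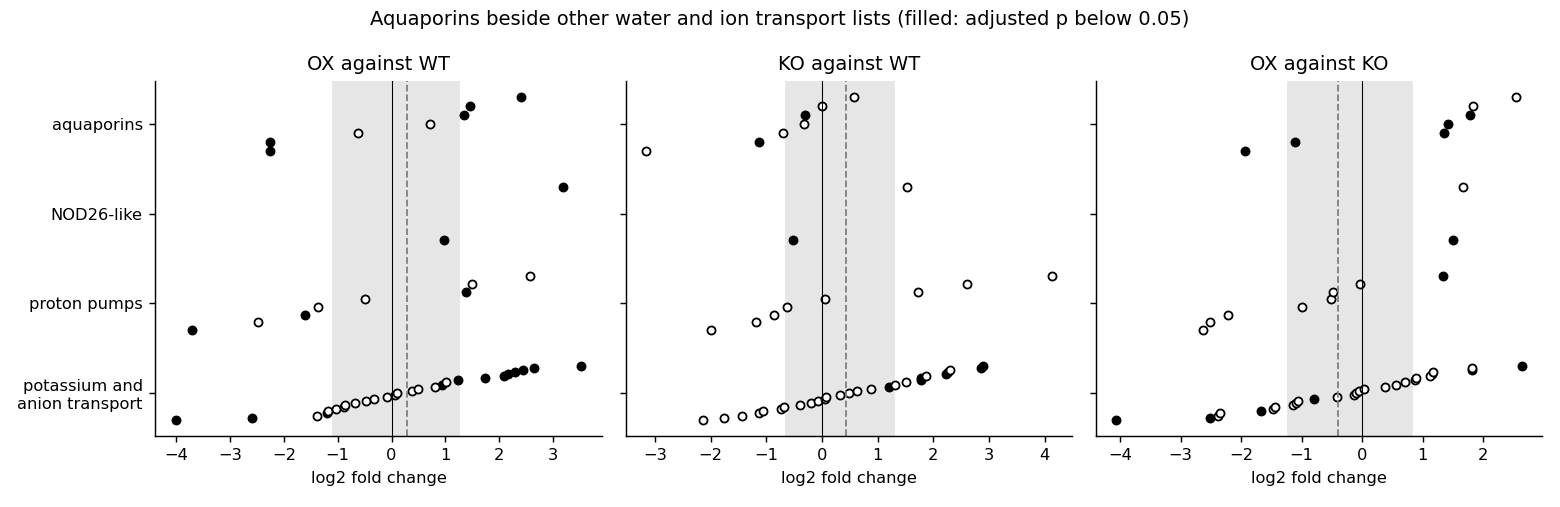
Log2 fold change (horizontal axis) of single transcripts of 4 lists in the 3 comparisons, filled where the adjusted p is below 0.05. The grey band holds the middle 50% of all 7034 transcripts tested and the dashed line is their median. In OX against WT the called aquaporins lie outside the band on both sides.

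In the authors' deposited table of gene ontology terms, water channel activity held 6 of 23 annotated entries among the selected transcripts, all 6 of them aquaporins described here, with an adjusted p of 0.789. The term response to water deprivation held 39 of 112 entries, with an adjusted p of 0.0451 in the authors' deposited table. Its aquaporins were Os09t0541000-01 and Os02t0823100-01, which are 2 of the plasma membrane transcripts called higher in OX. The term water transport held 6 of 23 entries, 5 of them aquaporins described here, with an adjusted p of 0.876 in the authors' deposited table.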

How the data were processed

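Leaf poly(A) libraries (TruSeq stranded mRNA kit, per the labels' protocols) were assigned to OX, KO and WT by sample title. The submitters' processing notes name IRGSP-1.0 as build. No aligner, counter or test of the authors is named in the sources used here. The authors' deposited table lists 7194 transcripts selected by fold change and p-value. Its estimated counts are whole numbers, equal to reads computed from the authors' deposited FPKM, to within 0.02 below and 1.02 above. The deposited TPM values were not used. The authors' deposited log2 normalised values gave the effective totals, and their deposited p-values showed that 27384 transcripts had been tested. Fold changes in the authors' table are linear with a sign.

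Counts were fitted with edgeR 4.0.16 (R 4.3.3, robust quasi-likelihood test) in 1 model of 6 libraries, with group as sole term and effective totals as library sizes. The filter filterByExpr kept 7034 transcripts. P-values were adjusted over 27384 transcripts, with unlisted ones counted as larger. The SE is the fold change divided by the square root of F. Alternatives were DESeq2 1.42.0 size factors and Wald test, TMM, plain totals, no filter, a replicate block and leaving out each library, where a lone library is assumed to vary like the other groups. The procedure was tested on simulated data. All matched aquaporins are named, and from other lists the called transcripts with the largest and smallest fold change, except Os08t0241800-01, which was named after its values were seen. Searches of the descriptions for silicon and boron efflux, small basic intrinsic proteins and guard cell markers matched no transcript. The members and lists were chosen with earlier results of these data known.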

Additional observations from a re-analysis of the deposited data

How the results depend on the processing

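In OX against WT, the 3 higher aquaporin calls became 2 to 4 under the 12 alternatives and the 2 lower calls stayed at 2. In KO against WT the 2 lower calls became 5 with DESeq2 size factors, 5 with TMM, 1 with plain totals, 1 with the replicate block, 4 with the DESeq2 Wald test and 0 to 3 on leaving out 1 library. In OX against KO the 2 lower calls became 1 with DESeq2 size factors, 1 with TMM and 1 to 2 on leaving out 1 library. Differences between replicates correlated weakly across 7034 transcripts, at 0.0748 (OX and WT), 0.0141 (KO and WT) and 0.0172 (OX and KO). Whether replicate numbers mark a shared batch for some transcripts was not tested. Under the replicate block the delta-tonoplast transcript lost its call in KO against WT (adjusted p = 0.0614, edgeR). The block also ended the KO call against WT of Os06t0336200-02 (0.0747) and the OX call against WT of Os01t0834200-04 (0.0657).

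Leaving out 1 library gave, over all transcripts, 1097 to 1527 higher and 882 to 1169 lower calls in OX against WT (1762 and 1337 reported), 1112 to 1484 and 433 to 674 in KO against WT (1758 and 776), and 497 to 880 and 1083 to 1705 in OX against KO (934 and 1759). DESeq2 size factors gave 1111 higher and 1356 lower in KO against WT, and TMM 1237 lower. Proton pumps lower in OX against WT (2) became 1 with plain totals, 1 with the replicate block and 0 to 2 on leaving out 1 library, and the higher one 0 to 1. In KO against WT the Wald test gave 1 higher pump, and leaving out 1 library 0 to 1. In OX against KO leaving out 1 library gave 0 to 1 higher and 0 to 2 lower pumps, and the Wald test 1 lower. Potassium and anion transport transcripts lower in KO against WT (0) became 4 with DESeq2 size factors, 4 with TMM, 1 with the replicate block, 2 with the Wald test and 0 to 1 on leaving out 1 library. In OX against KO, 3 higher became 1 to 4 on leaving out 1 library, and 4 lower became 2 with DESeq2 size factors, TMM or the replicate block and 2 to 3 on leaving out 1 library. Leaf markers higher in OX against WT (0) became 1 with plain totals and 0 to 1 on leaving out 1 library. In OX against KO, 2 higher became 1 with the replicate block and 1 to 2 on leaving out 1 library, and 30 lower became 19 with DESeq2 size factors and 16 with TMM.

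Signs also turned, and the cause was not tested. In KO against WT, Os02t0823100-01 (-0.01) was 0.19 with plain totals and -0.0481 to 0.0307 on leaving out 1 library, and Os09t0541000-02 (0.57) was -0.29 to 1.11. The malate transporter Os01t0221600-00 (0.05, adjusted p = 1) was called lower at -0.44 with DESeq2 size factors (adjusted p = 0.0165) and -0.35 with TMM (0.0372), and the H+-pyrophosphatase Os06t0178900-01 was -0.44, -0.34 and, on leaving out 1 library, -0.0722 to 0.20. In OX against WT, Os03t0146100-03 (-0.63) was -1.95 to 1.12, and in OX against KO the AKT1-like channel Os01t0648000-01 was -0.0229 to 0.0900. Of the other alternatives for single transcripts, 497 kept direction and side of the threshold, 45 lost a call and 20 gained one, not counting the sign turns. That tally covers the aquaporins, the NOD26-like transcripts, Os06t0336200-02 and the named pump and ion transport transcripts except Os08t0241800-01 and Os01t0834200-02. Os08t0241800-01 also lost its OX call against WT with plain totals (adjusted p = 0.0504, edgeR). What depth limits was not tested.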

Other observations

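Os03t0146100-03 differed between replicate 2 and replicate 1 by 4.00-fold in OX, 1.14-fold in KO and 5.72-fold in WT. Of the transcripts tested, 3.21% were as far apart in OX and 2.45% in WT, and 20 of 7034 were at least 4-fold higher in replicate 2 of both OX and WT. Os03t0146100-03 itself, just under that size in OX, is not among them. This comparison was chosen after the values were seen.

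Few listed transcripts lay near an aquaporin gene. Within 20000 bases, Os01t0231800-01, with a clone description, lay 11790 bases from Os01t0232000-00. It was higher in OX than in WT (log2 fold change 1.09, adjusted p = 0.0298, edgeR), opposite to the aquaporin beside it. The hypothetical gene Os09t0540800-00, at 16736 bases from Os09t0541000-01, was not called in any comparison (adjusted p = 0.463, 0.124 and 0.829).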
